A study of Gallus gallus with 4 samples.

Results

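The BMP target and feedback genes described here are genes that cells switch on, or keep on, when bone morphogenetic proteins (BMPs) reach them, together with genes whose products damp that signal. The members were 8 named genes, matched by gene symbol without regard to case, and 7 of them were found among 19309 gene rows, namely ID1, ID2, ID3, SMAD6, SMAD7, BAMBI and NBL1. ID4 was not found by name among the rows whose symbol could be used, and was not analysed here. RNA was sequenced from granulosa cells, the somatic cells that enclose the oocyte of a follicle, of chicken (Gallus gallus) hens aged 10 to 15 months. The labels call all of them natural granulosa cells. Cells near the germinal disc (proximal), the spot on the yolk where the oocyte nucleus lies, and cells far from it (distal) came from follicles at the F5 stage and at the F1 stage, which is the next to ovulate. Each of the 4 groups, F5 proximal, F5 distal, F1 proximal and F1 distal, was 1 library. The labels give no strain and no treatment, and the number of hens or follicles behind each library is not in them.

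BMPs are secreted ligands that bring together type I and type II receptor kinases at the cell surface. The activated receptors phosphorylate SMAD1, SMAD5 and SMAD9, which enter the nucleus and switch on target genes, the ID genes among the most direct. SMAD6 and SMAD7 are inhibitory SMADs that such signalling induces and that then block the receptors, BAMBI is a decoy receptor without a kinase, and NBL1 (also called DAN) is a secreted protein that binds BMPs. In the ovary, granulosa cells receive members of this ligand family from theca cells and from the oocyte.

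The values are FPKM, a fragment density normalised for gene size and sequencing depth, as the authors deposited them. The totals behind them were recovered from the values and ranged from 13948790 reads in F1 distal cells to 18020270 in F1 proximal cells. All 7 members passed the filter on low values, which kept 11203 genes that averaged 1 FPKM or more. Each ratio below is a ratio of FPKM with a 95% exact binomial (Clopper-Pearson) interval from the recovered reads. It carries the error of counting reads and none of the variation among hens or follicles. With 1 library a group the position differences have no replicate check and no test, and the members were chosen with position differences of these data known, so they are given as a description. Across all genes tested the median difference in log2(FPKM + 1) between proximal and distal cells was 0.07 in F5 and 0.20 in F1, and median-ratio scaled ratios, which take out such a shift, are given where they alter the picture.

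Near the germinal disc ID1, SMAD6 and NBL1 stood higher in both follicles, ID3 moderately so, ID2 and SMAD7 differed little, and BAMBI went different ways in the F5 and the F1 follicle. Taking 2-fold in log2(FPKM + 1) as the size that counts, 3 of the 7 members, namely ID1, SMAD6 and NBL1, were higher in proximal cells in F5, where 2.18% of all genes tested were, and the same 3 were higher in F1, where 5.18% of all genes were. None of the 7 was 2-fold lower in F5 or in F1, against 0.321% and 0.303% of all genes. Under median-ratio scaling 194 genes were higher and 44 lower in F5, and 460 higher and 91 lower in F1, in place of 244 and 36, and 580 and 34. Since the members were chosen on this contrast, nothing is read from these shares. In RNA taken from many granulosa cells together, as here, fewer cells that carry a transcript and less of it per cell cannot be told apart.

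**Figure D1:**
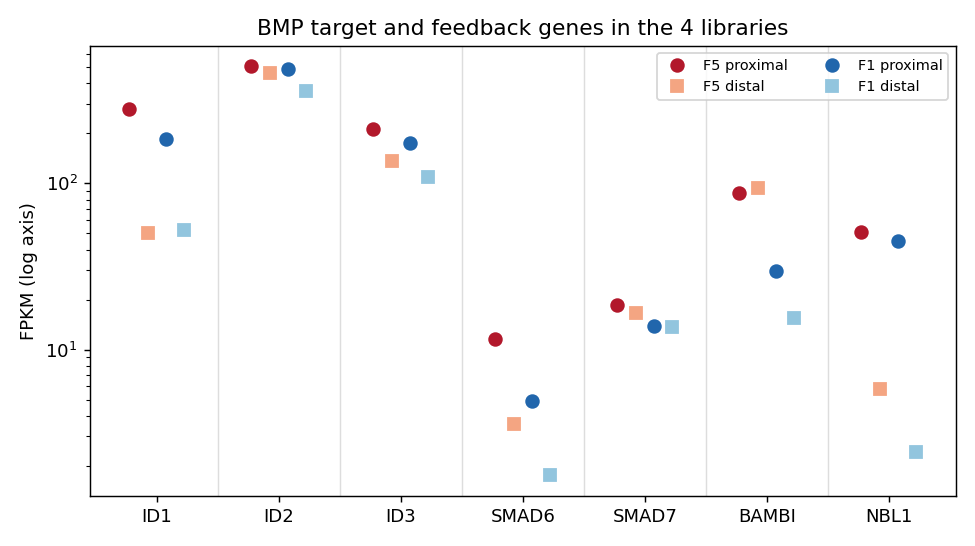
Expression of the 7 members in the 4 libraries, with FPKM on a log axis, circles for proximal and squares for distal cells, red for F5 and blue for F1. For ID1, SMAD6 and NBL1 each circle lies well above the square of the same follicle, while the BAMBI points separate by follicle, from 93.9 FPKM in F5 distal to 15.6 FPKM in F1 distal cells.

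ID1 (ENSGALG00000006210) lies on the plus strand of chromosome 20 from 10351641 to 10352379 in the coordinates of the authors' files, of an unstated genome build. Its product binds basic helix-loop-helix transcription factors and keeps them off DNA, and it is a textbook direct target of BMP-activated SMADs. In F5 the level of ID1 was 280.1 FPKM near the disc and 50.5 FPKM far from it, from 2766 and 520 reads. In F1 the levels were 185 FPKM and 52.6 FPKM, from 1978 and 435 reads. The proximal libraries were both high and the distal libraries both low, and the 2 distal values lay close together. ID1 was 5.54-fold higher in proximal cells in F5 (5.04 to 6.10) and 3.52-fold higher in F1 (3.17 to 3.91). Median-ratio scaling gave 5.11 in F5 and 2.90 in F1, the latter under the counting interval of the unscaled ratio. The F1 ratio was 0.635 of the F5 ratio (0.551 to 0.732, exact conditional interval, counting error only), computed on unscaled values only. Among the 11203 genes ranked from the highest proximal excess down, ID1 was at rank 23 in F5 and rank 173 in F1.

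ID2 (ENSGALG00000016403, plus strand of chromosome 3, 95424295 to 95426233) and ID3 (ENSGALG00000027300, minus strand of chromosome 23, 2169483 to 2170150) encode related inhibitors of the same factors. ID2 measured 506 FPKM (proximal) and 462 FPKM (distal) in F5, and 491 FPKM (proximal) and 359 FPKM (distal) in F1. It was the most abundant member in every library and ranked 119 among all gene rows in F5 proximal cells. ID2 was 1.10-fold higher in proximal cells in F5 (1.07 to 1.13) and 1.37-fold higher in F1 (1.33 to 1.41), which median-ratio scaling reduced to 1.01 and 1.13. The F1 ratio was 1.25 times the F5 ratio (1.20 to 1.30), computed on unscaled values only.

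ID3 measured 214 FPKM (proximal) and 137 FPKM (distal) in F5, and 174 FPKM (proximal) and 109.9 FPKM (distal) in F1. Its ratio of proximal to distal cells was 1.56 in F5 (1.46 to 1.67) and 1.59 in F1 (1.46 to 1.72), a ratio of 1.02 between follicles (0.913 to 1.13). Median-ratio scaling gave 1.44 in F5 and 1.31 in F1, and the ratio between follicles was computed on unscaled values only. The 3 ID genes therefore differed from one another in the size of the position ratio, which was highest for ID1 and lowest for ID2 in both follicles.

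The make-up of the ID pool, here ID1, ID2 and ID3 without ID4, shifted with position. FPKM is scaled to length, so comparing levels between genes rests on the gene lengths used for it. The summed FPKM of ID1, ID2 and ID3 was 999.9 near and 649 far from the disc in F5, and 851 near and 521 far from it in F1. ID1 made up 28.0% of this sum in F5 proximal and 21.8% in F1 proximal cells, but 7.79% of it far from the F5 disc and 10.1% far from the F1 disc. ID3 held a near constant share, between 20.5% and 21.4% in the 4 libraries, and ID2 took the rest, from 50.6% in F5 proximal to 71.1% in F5 distal cells. As a result the order of ID1 and ID3 swapped with position. ID1 stood at 1.31 times the FPKM of ID3 in F5 proximal and 1.06 times in F1 proximal cells, and at 0.369 and 0.478 times in F5 and F1 distal cells.

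**Figure D2:**
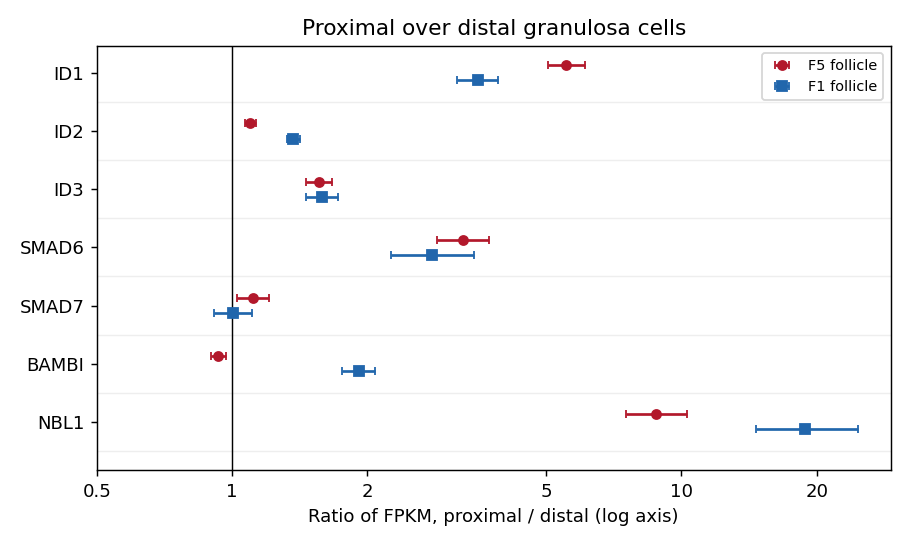
Ratio of FPKM in proximal to distal cells for each member on a log axis, with circles for the F5 and squares for the F1 follicle and bars for the 95% exact binomial interval of counting error. NBL1 reaches 8.78 in F5 and 18.9 in F1, ID1 and SMAD6 lie between 2.78 and 5.54, and BAMBI lies at 0.931 in F5 and 1.91 in F1.

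Of the inhibitory SMADs, SMAD6 was more than 2-fold apart by position in both follicles and SMAD7 was not. SMAD6 (ENSGALG00000025898, plus strand of chromosome 10, 18171488 to 18201886), which acts mainly on BMP receptors, had a level of 11.6 FPKM near the disc and 3.56 FPKM far from it in F5, from 917 and 293 reads. The F1 levels were 4.88 FPKM and 1.75 FPKM, from 417 and 116 reads. Both proximal values lay above the distal value of the same follicle, and the F1 proximal level was not far above the F5 distal level. SMAD6 was 3.26-fold higher in proximal cells in F5 (2.86 to 3.73) and 2.78-fold higher in F1 (2.26 to 3.45), with a ratio of 0.853 between follicles whose interval, 0.665 to 1.10, holds 1. The median-ratio scaled ratios were 3.00 in F5 and 2.30 in F1. The ratio between follicles and its interval were computed on unscaled values only, so whether the interval holds 1 after scaling was not tested. On the log2(FPKM + 1) scale the scaled F1 difference came out under the 2-fold size rule.

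SMAD7 (ENSGALG00000027843), which blocks receptors of both the TGF-beta and the BMP branch, was placed by the authors' files on the unplaced scaffold JH376398.1, minus strand, 4441 to 31699. It measured 18.5 FPKM (proximal) and 16.6 FPKM (distal) in F5, and 13.81 FPKM and 13.75 FPKM in F1. Its proximal ratio was 1.11 in F5 (1.02 to 1.21) and 1.00 in F1 (0.911 to 1.11). Scaled by median ratios these became 1.03 and 0.829. The balance of the inhibitory pair thus moved with SMAD6, and the FPKM of SMAD7 was 1.59 times that of SMAD6 near the F5 disc and 4.66 times far from it, and 2.83 and 7.85 times in F1.

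BAMBI (ENSGALG00000025919, minus strand of chromosome 2, 15230158 to 15236740), the decoy receptor, differed more between the follicles than between the positions. It measured 87.4 FPKM (proximal) and 93.9 FPKM (distal) in F5, and 29.8 FPKM (proximal) and 15.6 FPKM (distal) in F1. The 2 F5 libraries were high and close to each other, and the F1 distal library was the lowest. Proximal cells held 0.931 times the distal level in F5 (0.897 to 0.966) but 1.91 times in F1 (1.76 to 2.08), so that the ratio in F1 was 2.05 times that in F5 (1.87 to 2.25). The median-ratio scaled ratios, 0.858 and 1.58, lay on the same sides of 1, and the ratio between follicles was computed on unscaled values only.

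NBL1 (ENSGALG00000004043, plus strand of chromosome 21, 4764694 to 4774114), the secreted antagonist, had the steepest difference of the members in both follicles. In F5 its level was 51.1 FPKM near the disc and 5.83 FPKM far from it, from 1576 and 187 reads. In F1 the levels were 45.3 FPKM and 2.40 FPKM, from 1511 and 62 reads. Both proximal libraries were high and near each other, and both distal libraries were low. NBL1 was 8.78-fold higher in proximal cells in F5 (7.54 to 10.3) and 18.9-fold higher in F1 (14.6 to 24.7), and the F1 ratio was 2.15 times the F5 ratio (1.59 to 2.94). Median-ratio scaling gave 8.09 in F5 and 15.6 in F1, and the ratio between follicles was computed on unscaled values only. NBL1 was at rank 8 in F5 and rank 10 in F1 of the 11203 genes ordered by proximal excess.

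**Figure D3:**
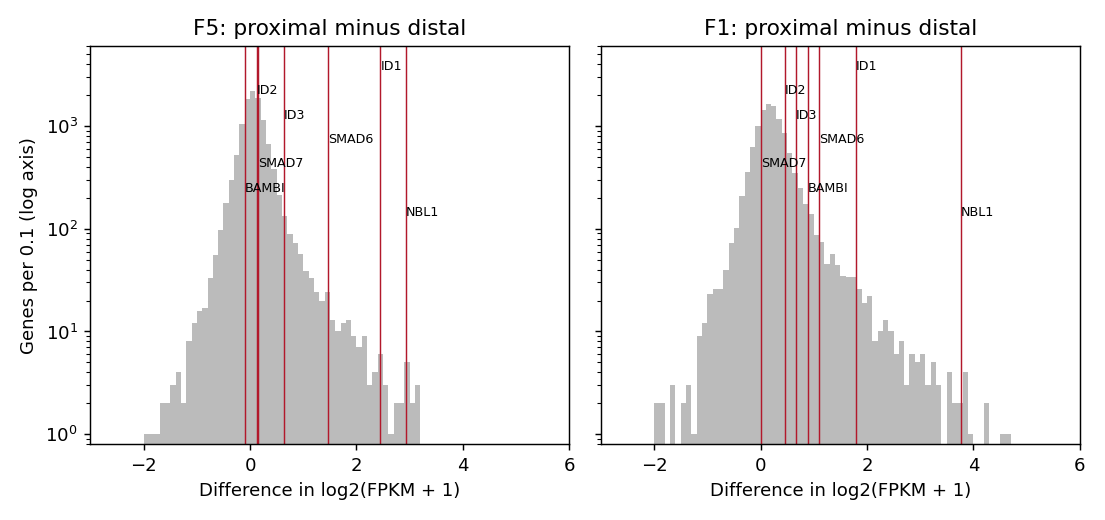
Number of genes per bin of 0.1 in the difference of log2(FPKM + 1) between proximal and distal cells for all 11203 genes tested, on a log axis, in F5 and in F1, with red lines at the members. NBL1 and ID1 stand in the upper tail in both follicles, at 2.93 and 2.45 in F5 and at 3.77 and 1.80 in F1, while ID2 and SMAD7 stand within the bulk.

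The authors' deposited table gives its own log2 fold changes for position, proximal over distal. In the authors' deposited table these were 2.38 in F5 and 1.58 in F1 for ID1, 1.61 and 1.24 for SMAD6, and 3.04 and 4.0004 for NBL1. For BAMBI the authors' deposited table gives -0.20 in F5 and 0.70 in F1, and for SMAD7 0.06 and -0.23.

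Between the follicles, the level of BAMBI and of SMAD6 fell from F5 to F1. This contrast was fitted with limma across all 11203 genes, with stage and position as additive terms. The 2 libraries of a stage are its proximal and distal cells, and the fit leaves 1 residual degree of freedom. Its error comes from how far the position difference varies between the stages, moderated over all genes. The p-values therefore measure no spread between hens or follicles, and such a spread cannot be told apart from stage here. Of the 7 members, 2 fell and 0 rose at a limma adjusted p under 0.05, where 35.8% of all genes tested fell and 10.4% rose. Since so large a share of all genes fell, and the median of all genes was -0.33 on the log2 scale, the count of members is close to the background. After median-ratio scaling 2169 genes rose and 1896 fell, in place of 1168 and 4010.

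BAMBI fell by 2.02 on the log2 scale (standard error 0.267; adjusted p from limma = 0.0148) and was lower in F1 at both positions. The F1 level was 2.94-fold lower near the disc (2.79 to 3.09) and 6.03-fold lower far from it (5.59 to 6.499). With median-ratio scaling the fall was by 1.64 (limma adjusted p = 0.0130, and between 0.00269 and 0.0329 over the alternatives run). SMAD6 fell by 0.91 (standard error 0.168; adjusted p from limma = 0.0229), 2.38-fold in proximal (2.12 to 2.68) and 2.03-fold in distal cells (1.63 to 2.54). Its call was lost under median-ratio scaling, with a difference of -0.61 and a limma adjusted p of 0.0546, and its adjusted p ranged from 0.0107 to 0.0546 over the alternatives.

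The other 5 members did not pass the threshold. The stage difference in log2(FPKM + 1) was -0.27 for ID1 (limma adjusted p = 0.282), -0.20 for ID2 (limma adjusted p = 0.221) and -0.30 for ID3 (limma adjusted p = 0.0546). It was -0.32 for SMAD7 (limma adjusted p = 0.0860) and -0.59 for NBL1 (limma adjusted p = 0.111). For ID1, ID2, ID3 and SMAD7 the sign turned under median-ratio scaling, and for NBL1 it did not. The stage ratios of ID1 and NBL1 were unlike at the 2 positions. ID1 was 1.51-fold lower in F1 than F5 proximal cells (1.43 to 1.60), and the ratio of F1 to F5 in distal cells was 1.04 (0.914 to 1.18). Median-ratio scaling gave 0.820 and 1.44 for these ratios of ID1, so that the larger of them was then the distal one, above 1. NBL1 was 2.42-fold lower in F1 than F5 distal cells (1.81 to 3.29) and 1.13-fold lower in proximal cells (1.05 to 1.21), where the scaled ratio was 1.10, on the other side of 1. By the size rule SMAD6 and BAMBI were 2-fold lower in F1 proximal cells, where 9.85% of all genes were, and BAMBI and NBL1 in F1 distal cells, where 17.8% were. No member was 2-fold higher in F1 at either position, against 4.46% of all genes in proximal and 5.36% in distal cells.

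**Figure D4:**
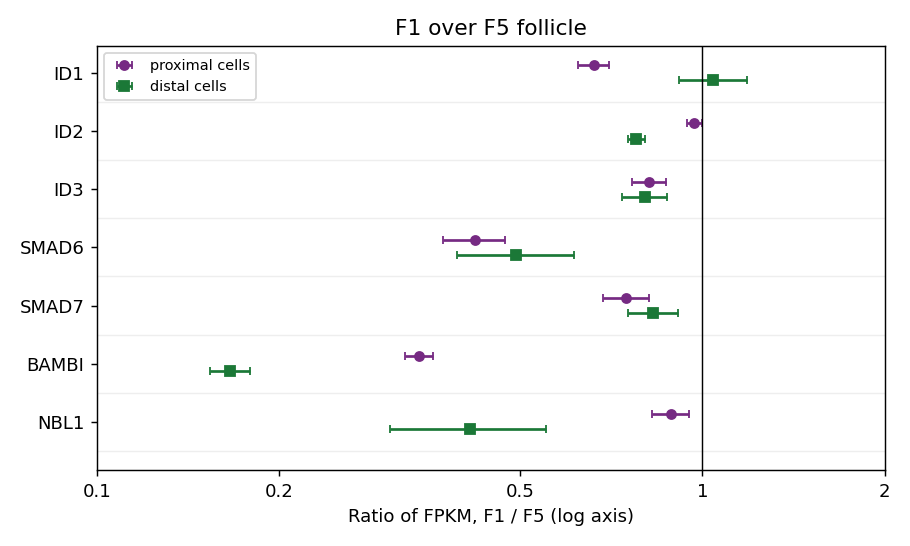
Ratio of FPKM in F1 to F5 for each member on a log axis, with circles for proximal and squares for distal cells and bars for the 95% exact binomial interval of counting error. BAMBI stands lowest at both positions, at 0.341 in proximal and 0.166 in distal cells, and ID1 in distal cells, at 1.04, is the only point above 1.

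In order of level, ID2 led in each library. In the F5 proximal library ID1, ID3, BAMBI, NBL1, SMAD7 and SMAD6 followed. In F5 distal cells the order was ID2, ID3, BAMBI, ID1, SMAD7, NBL1 and SMAD6. In F1 proximal cells ID1 and ID3, at 185 and 174 FPKM, were followed by NBL1 at 45.3 FPKM, BAMBI, SMAD7 and SMAD6. In F1 distal cells the order was ID2, ID3, ID1, BAMBI, SMAD7, NBL1 and SMAD6. NBL1 and BAMBI therefore changed places in the proximal cells between the follicles. Of the position and stage ratios of the 7 members, those of ID1 between the distal libraries and of SMAD7 between the F1 libraries had a counting interval that holds 1.

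No gene row of the files overlapped a member, but 5 rows lay within 5 kb of one. An unnamed gene, ENSGALG00000021025, starts 2989 bases downstream of ID1 on the same strand. It had 27 reads near the F5 disc and 2 far from it, and 114 and 19 reads in F1, a proximal ratio of 14.1 in F5 (3.53 to 122) and 4.64 in F1 (2.84 to 8.00), the same direction as ID1. A short unnamed row, ENSGALG00000028956, ends 1135 bases upstream of SMAD6 on its strand and had between 1 and 8 reads per library, too few to give it a direction. HTR6, 2517 bases downstream of NBL1, had between 4 and 18 reads and a proximal ratio of 0.595 in F5 (0.128 to 2.34) and 0.387 in F1 (0.153 to 0.907), unlike NBL1.

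The genes with a profile over the 4 libraries most like that of ID1 were sought by the Euclidean distance between centred log2(FPKM + 1) values among the 6369 genes that averaged 5 FPKM or more and whose symbol could be used. They were ARHGDIG at 0.49, LMO2 at 0.61, CARHSP1 at 0.67, RBPMS2 at 0.72 and PLK3 at 0.73, all distances on the log2 scale. ARHGDIG measured 33.3 FPKM (proximal) and 9.07 FPKM (distal) in F5, and 26.9 FPKM and 6.72 FPKM in F1. Of the other members, SMAD6 was the nearest to ID1, at rank 20 with a distance of 1.07, followed by NBL1 at rank 80 and ID3 at rank 93, while BAMBI was at rank 5894. Among the profiles most like NBL1 were those of CLDN1 at 0.15, NGFR at 0.30, MRC2 at 0.48 and CCNO at 0.65. ID1 was at rank 19 from NBL1 and SMAD6 at rank 48. These distances rest on 4 libraries and have no test.

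The remaining genes of the pathway were taken from lists of ligands, receptors, SMADs, modulators and further targets. Beyond the members, 13 of 16 other BMP target genes were found by name and 7 passed the filter on low values. Of these 7, 3 in F5 and 4 in F1 reached 2-fold higher in proximal cells, beside 2.18% and 5.18% of all genes, and 0 were 2-fold lower. MSX1, SNAI1 and HES1, the 3 counted in F5, were under 1 FPKM in both distal libraries and passed the filter through the proximal libraries alone, and the lists were chosen with earlier results known, so nothing is read from these counts. The median difference in log2(FPKM + 1) of the list in F1 was 1.03 with the filter, 0.775 under median-ratio scaling and 0.46 with a pseudocount of 5. Without the filter it was 0.50 over the found genes above 0 in any library, which leaves out DLX5. HES1, a transcriptional repressor, was 3.63-fold higher in F5 (2.70 to 4.95) and 22.6-fold higher in F1 (10.8 to 56.8), and SNAI1, a zinc finger repressor, 5.56-fold (3.34 to 9.77) and 4.36-fold (2.28 to 9.19). MSX1, a homeobox gene, had 53 and 3 reads in F5, 18.4-fold higher (5.97 to 92.1), and 63 and 0 reads in F1, at least 16.3-fold higher against a floor of 3 reads per library. HEY1, a repressor of the same family as HES1, was 1.29-fold higher in F5 (1.19 to 1.41) and 2.14-fold higher in F1 (1.87 to 2.47). Median-ratio scaling brought these HEY1 ratios to 1.19 and 1.77, both under 2-fold. SNAI2, TBX3 and RUNX2 lay within 2-fold on the log2(FPKM + 1) scale in both follicles. Of 6 tested target genes of the TGF-beta and activin branch, 0 were 2-fold higher or lower in F5 or F1. Of all genes 2.18% were higher and 0.321% lower in F5, and 5.18% and 0.303% in F1, so nothing is read from this count. The difference between the lists of BMP targets and of TGF-beta and activin targets was not tested. TGFBI and LTBP2, which encode matrix proteins, had proximal ratios of 0.609 and 0.617 in F5 and 0.677 and 0.763 in F1, and CTGF, another, of 0.840 and 1.01.

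Among 15 ligands, 9 were found by name and 3 passed the filter. AMH, which signals through the BMP SMADs, was 13.7-fold higher in proximal cells in F5 (10.8 to 17.5) and 13.7-fold higher in F1 (8.74 to 22.7). BMP15, made by the oocyte, was 43.3-fold higher in F5 (18.3 to 135) and 24.8-fold higher in F1 (6.58 to 209), on 5 and 2 distal reads. BMP2 was 2.27-fold lower in proximal cells in F5 (1.71 to 3.04) and 3.56-fold higher in F1 (1.32 to 11.99), there from 23 and 5 reads. BMP6, under the filter, had 49 and 3 reads in F5, 17.0-fold higher in proximal cells (5.49 to 85.3). In F1 it had 43 and 5 reads, 6.66-fold higher (2.64 to 21.5). The other ligands found had 11 or fewer reads in each library. Of 8 listed receptors 6 were found by name, and BMPR2 and AMHR2 were not. None of the 4 receptors tested differed 2-fold by position. Of all genes 2.18% were higher and 0.321% lower in F5, and 5.18% and 0.303% in F1, so nothing is read from this count. BMPR1B, a type I receptor and the most abundant of them, stood at 66.2, 70.8, 75.7 and 70.3 FPKM in F5 proximal, F5 distal, F1 proximal and F1 distal cells. ACVR1, a type I receptor, had proximal ratios of 1.57 (1.35 to 1.82) and 1.23 (1.06 to 1.41), and ACVR2A, of type II, of 0.987 (0.871 to 1.12) and 1.39 (1.22 to 1.59). ACVRL1, a type I receptor under the filter, had 8 and 0 reads in F5 and 9 and 0 in F1. Of 4 coreceptors 1 was 2-fold higher in proximal cells in each follicle, beside 2.18% of all genes in F5 and 5.18% in F1. This was ENG, endoglin, with 371 and 15 reads in F5, 25.8-fold higher (15.4 to 46.5), and 258 and 3 reads in F1, 66.6-fold (22.5 to 325). ENG was under 1 FPKM in both distal libraries and passed the filter through the proximal libraries alone, so nothing is read from this count. RGMB, another coreceptor, stood at 26.2, 25.8, 114.8 and 130.1 FPKM in the order of libraries above, RGMA at 4.96, 5.93, 2.27 and 1.68 FPKM and TGFBR3 at 3.36, 5.41, 4.19 and 5.07 FPKM.

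SMAD5, which carries the BMP signal to the nucleus, measured 221 FPKM (proximal) and 237 FPKM (distal) in F5, and 182 FPKM and 202 FPKM in F1, and SMAD1 between 18.5 and 28.4 FPKM. SMAD4 and SMAD2 were not found by name. SMAD9, itself a known target of the pathway, was the 1 of 4 tested SMADs that was 2-fold higher in F1, where 5.18% of all genes were. It was 4.24-fold higher there (2.80 to 6.65), and 3.31-fold in F5 (1.65 to 7.24) from 35 and 11 reads. SMAD9 measured 1.21 FPKM (proximal) and 0.364 FPKM (distal) in F5, and 4.72 FPKM and 1.11 FPKM in F1. It passed the filter through the F1 proximal library alone, so nothing is read from the count of SMADs. Of 9 extracellular antagonists and modulators, 1 was 2-fold higher in F5, CHRDL1 at 13.1-fold (9.21 to 19.3), and 1 in F1, FST at 11.2-fold (7.59 to 17.2). These stand beside 2.18% and 5.18% of all genes, and 0 were 2-fold lower on the log2(FPKM + 1) scale. GREM1 and CHRDL2, named after their values were seen, had FPKM ratios of 0.417 (0.242 to 0.695) and 0.530 (0.327 to 0.843) in F5. In F1 their ratios were 0.854 (0.726 to 1.005) and 1.23 (0.745 to 2.07). NOG, noggin, measured 128 FPKM (proximal) and 120.5 FPKM (distal) in F5, and 78.7 FPKM and 47.9 FPKM in F1, and FSTL1 420.5, 466, 101 and 53.5 FPKM in the same order. Of 8 intracellular inhibitors, none differed 2-fold by position on the log2(FPKM + 1) scale. Of all genes 2.18% were 2-fold higher in F5 and 5.18% in F1, so nothing is read from this count. TOB2, LEMD3 and SMURF1, the highest in level, had FPKM ratios of 1.48, 1.17 and 0.937 in F1, and TGIF1, named after its values were seen, of 2.001 (1.54 to 2.61). The E proteins TCF3 and TCF12, which ID proteins bind, had proximal ratios of 0.942 (0.880 to 1.01) and 0.999 (0.948 to 1.05) in F5 and of 1.29 (1.17 to 1.41) and 1.19 (1.11 to 1.26) in F1, which median-ratio scaling brought to 1.06 and 0.978.

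In the stage fit, 2 of 4 SMADs rose and 0 fell at a limma adjusted p under 0.05, and SMAD3, of the TGF-beta branch, rose by 2.03 (limma adjusted p = 0.00675). Of the other BMP target genes 3 of 7 fell and 0 rose, of antagonists 4 of 9 fell and 2 rose, of intracellular inhibitors 3 of 8 fell and 1 rose, and of ligands 2 of 3 fell. Of 4 receptors 0 passed the limma threshold. Both tested E proteins fell, while among coreceptors 1 of 4 rose and 1 fell, and among TGF-beta and activin targets 2 of 6 rose and 1 fell. These counts stand beside 10.4% of all genes that rose and 35.8% that fell. They rest on unscaled values and were not recounted under median-ratio scaling, where 2169 genes rose and 1896 fell in place of 1168 and 4010. SMAD9, which rose, passed the filter through the F1 proximal library alone. BMP2, a ligand that fell, was at 1.47 FPKM in F1 proximal and 0.412 FPKM in F1 distal cells and passed the filter through the F5 libraries. Nothing is therefore read from the counts of SMADs and of ligands. The scaled ratios of F1 to F5 were 0.898 in proximal and 0.735 in distal cells for TCF3. For TCF12 they were 0.977 and 0.920.

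**Figure D5:**
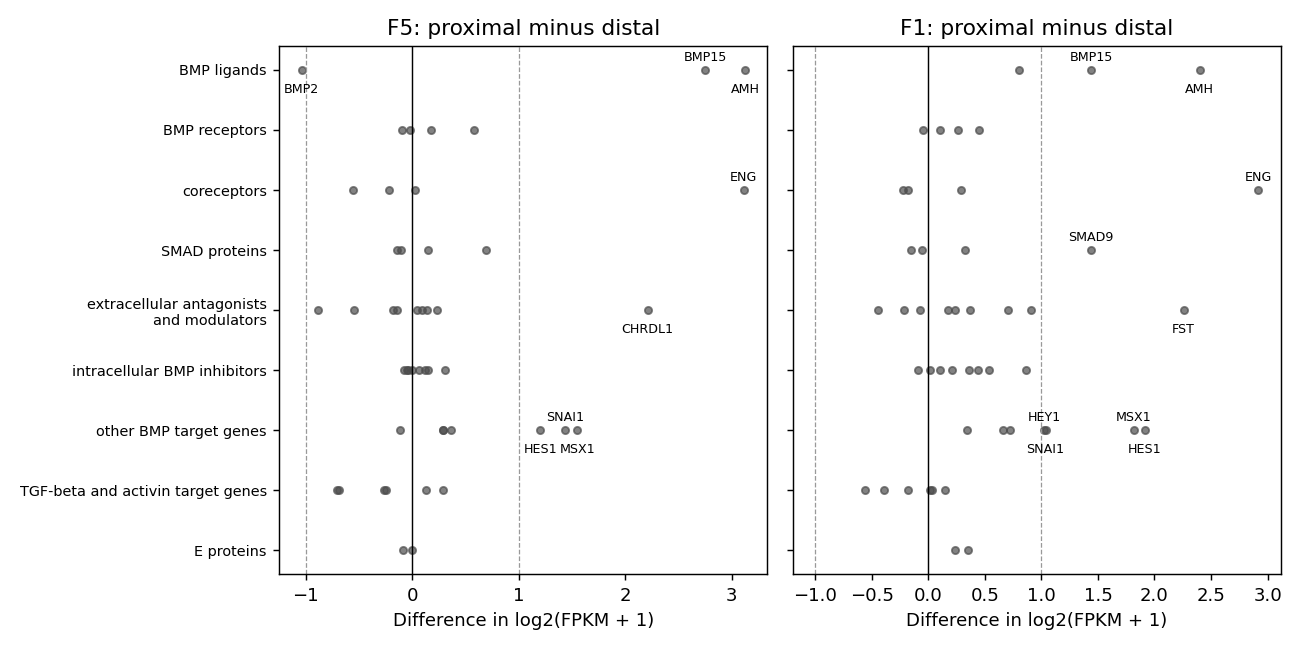
Difference of log2(FPKM + 1) between proximal and distal cells for the tested genes of each pathway list, 1 point a gene, in F5 and in F1, with dashed lines at 2-fold and names beyond them. Receptors, intracellular inhibitors, TGF-beta and activin targets and E proteins stay within 2-fold. ENG, AMH, BMP15, MSX1, SNAI1 and HES1 lie to the right in both follicles. All of these except AMH were under 1 FPKM in both distal libraries and passed the filter through the proximal libraries alone.

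Markers of other cell types were read in the same libraries, since endothelial cells also express ID1 and SMAD6. The granulosa marker FOXL2 stood between 861 and 1594 FPKM in the 4 libraries. Of 9 granulosa markers AMH was the 1 that differed 2-fold by position, in both follicles. It was higher in proximal cells, as were 2.18% of all genes in F5 and 5.18% in F1. ZP3, a zona pellucida gene that chicken granulosa cells express, measured 14379 FPKM (proximal) and 14816 FPKM (distal) in F5, and 82662 FPKM and 111496 FPKM in F1. These levels enter the library totals that FPKM is scaled by, and the median-ratio scaled values above do not rest on those totals. Of 13 endothelial markers found, 5 were tested, and 2 were 2-fold higher in proximal cells in F5 and 1 in F1. These counts stand beside 2.18% of all genes in F5 and 5.18% in F1. The summed level of the 13 was 104 FPKM (proximal) and 66.6 FPKM (distal) in F5, and 179 FPKM and 162 FPKM in F1. PECAM1, of endothelial junctions, had 197, 154, 156 and 105 reads in the order F5 proximal, F5 distal, F1 proximal and F1 distal, with proximal ratios of 1.33 (1.07 to 1.66) and 1.15 (0.892 to 1.49). TIE1, an endothelial receptor kinase, had 291, 278, 270 and 145 reads, with ratios of 1.09 (0.922 to 1.29) and 1.44 (1.17 to 1.78). EGFL7, a secreted endothelial factor, had the highest level over the F5 libraries, at 51.2 FPKM and 49.6 FPKM. CDH5 had 27, 2, 2 and 1 reads in the same order, KDR between 2 and 4, TEK between 1 and 6, and VWF 7, 9, 0 and 0. EMCN measured 10.6 FPKM (proximal) and 0.986 FPKM (distal) in F5, and 3.67 FPKM and 0.116 FPKM in F1, and CLDN5 30.9 FPKM and 6.64 FPKM in F5 and 121 FPKM and 109 FPKM in F1. EMCN, counted in both follicles, passed the filter through the proximal libraries alone. Of 4 oocyte markers tested, 3 were 2-fold higher in proximal cells in F5 and 4 in F1, beside 2.18% and 5.18% of all genes. The summed levels of oocyte markers were 31.1, 13.0, 16.6 and 2.03 FPKM. Most of that sum outside the F1 proximal library was BUB1B, a mitotic checkpoint gene of dividing cells, at 16.0, 12.1, 7.57 and 1.89 FPKM. The other 3 tested, BMP15, DAZL and ZAR1, were under 1 FPKM in both distal libraries and passed the filter through the proximal libraries alone. Nothing is therefore read from the counts of oocyte markers. ZAR1, of oocytes, had 58 and 13 reads in F5 and 67 and 1 in F1. DAZL, of germ cells, had 128 and 3 reads in F5 and 102 and 0 in F1. Theca and stroma markers summed to 16.5, 10.7, 13.1 and 7.68 FPKM. Of 2 tested, 2 were higher in proximal cells in F5 and 1 in F1, beside 63.0% and 77.5% of all genes. Of these 2 markers 0 were 2-fold apart, where 2.18% of all genes were 2-fold higher in F5 and 5.18% in F1. Nothing is read from these counts. Most of the sum was COL1A2, a collagen gene, which was 1.69-fold higher in proximal cells in F5 (1.52 to 1.88) and 1.81-fold higher in F1 (1.62 to 2.03). The other tested marker had ratios of 1.19 in F5 (0.837 to 1.71) and 0.442 in F1 (0.0950 to 1.74), there on 4 and 7 reads. COL3A1, under the filter, had ratios of 1.41 (0.672 to 3.05) and 0.919 (0.448 to 1.91). PDGFRB, also under the filter, had a ratio of 1.35 in F5 (0.99996 to 1.82) and 4.98 in F1 (2.23 to 13.1), there on 45 and 7 reads. DCN, PDGFRA and TAGLN had 4 or fewer reads in each library. LUM was at 0 in all 4 libraries. Leukocyte markers summed to between 0.674 and 2.80 FPKM, and 0 passed the filter. SPI1 was at 0 in all 4 libraries. CSF1R had 30 and 3 reads in F5, 10.4-fold higher in proximal cells (3.24 to 53.3), and 6 and 1 reads in F1. CD3E had 31 and 17 reads in F5, a ratio of 1.90 (1.02 to 3.66), and 0 in F1. The F5 ratios of PTPRC, CD3D and LCP1 were 1.39 (0.617 to 3.22), 0.868 (0.407 to 1.82) and 0.868 (0.210 to 3.41), with intervals that hold 1. The part of endothelial, oocyte, theca, stroma and leukocyte RNA in the levels of ID1, SMAD6 and NBL1 was not tested.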

How the data were processed

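Poly-A selected RNA of 4 granulosa cell libraries was sequenced. The authors deposited FPKM per gene, and per the submitters' processing notes used TopHat2 2.0.12 and HTSeq 0.6.1. The genome build and the strandedness of counting are not given in the sources used here. The log2 fold changes in the authors' deposited table compare proximal with distal cells, per the file headers, by a method not given there. Of the gene rows, 11919 had a symbol that was unique and that a RefSeq gene table of assembly GRCg7b held without contradicting the chromosome. A gene counted as found by name only if its row was among these. Rows that held no gene (2) stayed out.

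FPKM ratios between libraries fitted whole reads at a tolerance of 1e-12 for 16894 of 16894 genes above 0. Each gene was given the lowest whole reads for which the implied gene length was whole and not under the listed transcript, and these came to 99.9999% to 100.2% of the totals. SMAD7 was 1 of 1659 genes whose smallest fit was multiplied for that reason. Recovery and the fit were tested on simulated data.

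Differences used log2(FPKM + 1), a pseudocount of 1, which understates the change of low genes, and a filter at a mean of 1 FPKM. The stage fit used R 4.3.3 and limma 3.58.1 (moderated variances with a trend, two-sided, Benjamini-Hochberg over all genes tested, threshold 0.05) with 1 residual degree of freedom. Alternatives were median-ratio scaling, a pseudocount of 5, no filter, and voom weights on the recovered reads. The members and gene lists were chosen with earlier results of these data known. From each list, genes 2-fold apart by position and up to 3 others with the highest mean are named, as is each gene whose profile was among the 5 nearest, except a few genes that are not reported here. A planned search of promoters for motifs was not run.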

Additional observations from a re-analysis of the deposited data

Results flagged for a closer look

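For 7 genes, among the members and the pathway genes named by the rule for named genes, the position ratio lay on opposite sides of 1 in F5 and F1, with counting intervals that exclude 1 in both. With 1 library a group this difference between the follicles was not tested against the spread between hens. The proximal over distal ratio of BAMBI was 0.931 in F5 and 1.91 in F1. That of BMP2 was 0.440 and 3.56, the second on 23 and 5 reads. CHRDL1, a chordin-like BMP antagonist, had ratios of 13.1 and 0.724, and FSTL1, a follistatin-like secreted protein, of 0.903 and 1.89. RGMA, a BMP coreceptor, had ratios of 0.837 and 1.35, and TBX3, a T-box transcription factor, of 0.918 and 1.29. BMPR1B had ratios of 0.935 and 1.08, which under median-ratio scaling came to 0.861 and 0.888, on the same side of 1. The ratios of the other 6 stayed on opposite sides under that scaling, though in F1 that of RGMA came to 1.12 and that of TBX3 to 1.07. Whether counting intervals still exclude 1 after scaling was not tested. Among listed genes under the filter on low values, TLL1 also had ratios on opposite sides, 0.486 (0.275 to 0.833) and 2.53 (1.26 to 5.52), from 21 and 45 reads in F5 and 36 and 11 in F1.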

How the results depend on the processing

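ID1 and NBL1 stayed above 2-fold near the disc of both follicles under each of the 3 alternatives for these values. SMAD6, the other member above 2-fold, dropped under it with a pseudocount of 5 in both follicles and with median-ratio scaling in F1. Members 2-fold lower in F1 came to 1 at each position both under median-ratio scaling and with a pseudocount of 5. In the stage fit 1 member fell under median-ratio scaling, with 2169 genes that rose and 1896 that fell. There the stage effect turned to 0.12 for ID1, 0.19 for ID2, 0.0851 for ID3 and 0.0429 for SMAD7, none of them called. With a pseudocount of 5, genes 2-fold higher and lower came to 68 and 1 in F5 and 148 and 4 in F1 by position, and to 283 and 463 in proximal and 333 and 918 in distal cells by stage, since a larger pseudocount shrinks low genes. Median-ratio scaling gave 91 lower genes in F1 by position, 656 lower genes in proximal cells by stage, and 1071 higher and 1196 lower in distal cells by stage. Without the filter 62 genes were lower in F5. Voom weights and no filter changed no call of a member. No paired analysis was possible because each group had 1 library and no replicate numbers are shared, and the stage fit already carries position as a term. Depth limits MSX1, BMP15, BMP2, BMP6 and ENG, with 5 or fewer reads in a distal library.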
